A study of Mus musculus with 6 samples.

Results

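Potassium channel genes were taken as the gene symbols of the lip RNA-Seq count table that start with Kcn and have 1 CPM or more in 3 libraries or more, where CPM is the count scaled to equal library size. The rule kept 51 of 92 Kcn symbols, out of 26814 symbols in all and 15009 that passed the same filter. Lip RNA came from adult female mice on the C57BL/6J background, of which 3 were wild type (WT) and 3 carried the Gtf2ird1 tm1Hrd mutation and are labelled Gtf2ird1 KO, with 1 paired-end mRNA library per mouse. The dissected top lip holds skin, mucosa, muscle, vessels and nerve together, so in these bulk libraries fewer cells of a type and less RNA per cell cannot be told apart.

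Potassium channels let potassium leave the cell and so set the resting potential and end action potentials. Voltage-gated (Kv) channels open on depolarization, inward rectifiers (Kir) hold the resting potential, two-pore (K2P) channels carry the leak current, and calcium-activated (KCa) channels link calcium to repolarization. Skeletal muscle, nerve and epithelium are known for different members of these families, while silent subunits and beta subunits change the channels they join. Each gene was therefore placed in 1 class by its best-known site of expression: 5 skeletal muscle genes, 4 of smooth muscle and heart, 28 of nerve, 8 epithelial and 6 that are broad or unsure. Many of these genes are active in more than 1 of these tissues, and the class was not measured in the lip.

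Between 20164081 and 29491767 reads per library were counted on genes, and 3 counts, the upper limit that a count of 0 allows for counting error only, correspond to 0.0986 to 0.154 CPM. The targeted gene, Gtf2ird1, had 73.0 ± 4.50 CPM in the WT and 157 ± 11.7 in the KO libraries (SD, n = 3; log2 fold change 1.11, adjusted p = 0.0018, edgeR), against the direction of the label, so that directions here refer to the libraries labelled KO; its exons overlap Gm42882 on the opposite strand. Counts per gene do not show which exons of Gtf2ird1 were read, and the cause of its higher level was not tested. By the study's methods the genotype of each mouse was typed in early life and checked again on tail tissue. One library stood apart. Across all tested genes (which are not replicates), the mean Pearson correlation of log2 CPM with the WT libraries was 0.951 for KO3, against 0.913 for KO1 and 0.923 for KO2, and counts of the classes and lists are also given without it where its absence changes them. KO3 was singled out on these same values, and leaving out the KO library nearest the WT tends to widen the differences. Calls made without KO3 are therefore no added support.

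With edgeR's quasi-likelihood test, fitted over all 15009 genes, an adjusted p under 0.05 was reached by 2 of the 51 channel genes with higher and 5 with lower values in the libraries labelled KO. These are 3.92% and 9.80% of the channel genes, where 4.38% and 2.09% of all tested genes were called higher and lower. Kcnk15 and Kcnv1 rose, and Kcnq5, Kcnd1 and Kcnf1 were among those that fell. In 43 of the 51 genes the log2 fold change was negative, with a median of -0.45 against -0.02 over all tested genes. Among the 43 are 5 genes with 1 CPM in all 3 WT libraries and in fewer than 3 KO libraries. The WT values alone kept these in the filter, so their sign supports nothing further. The 3 KO values were all under the 3 WT values in 19 genes (37.3%, against 18.1% of all genes), and above them in 3 genes (5.88%, against 13.5%). The other 29 genes overlapped between genotypes. The 18.1% and 13.5% of all genes are the background for such counts of classes and lists below. Summed over the 51 genes, the libraries held 524, 429 and 475 CPM in the WT and 328, 341 and 417 in KO1, KO2 and KO3, without overlap.

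These counts depended on single libraries. Without KO3, 19 channel genes of 48 tested were lower, the 5 above among them, and 1 was higher (Kcnv1, as Kcnk15 was then not tested), where 16.2% and 16.9% of all tested genes were called lower and higher. These shares are the background for every count without KO3 below. With another library left out, the quasi-likelihood test called 2 genes lower without WT2, 1 without WT3, and 0 without WT1, KO1 or KO2, where 11, 12 and 8 genes still were lower at an unadjusted p under 0.05 (10.1%, 8.08% and 7.3% of all genes tested in those fits). The share of all genes with an adjusted p under 0.05 was not counted in these fits. The drop in calls therefore cannot be read as particular to the channel genes. With all libraries, 13.5% of all genes were higher and 16% lower at an unadjusted p under 0.05, which is the background for such counts below. With all libraries, edgeR's exact test and DESeq2 each called 2 genes higher and 10 lower. Over all genes the exact test called 7.76% higher and 7.15% lower, and DESeq2 9.5% and 7.61%.

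**Figure D1:**
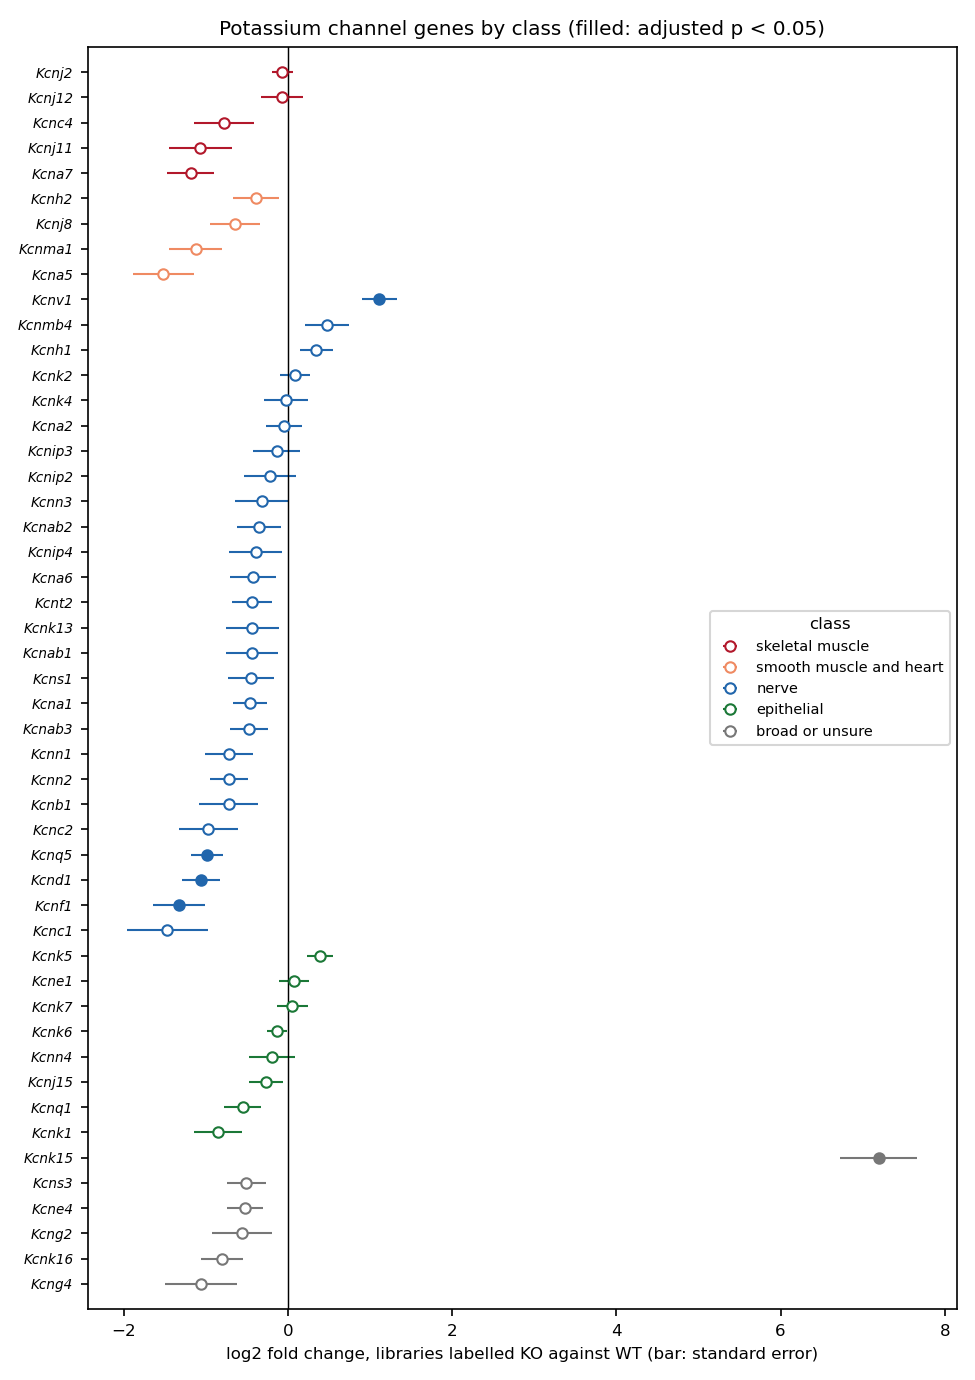
Log2 fold change of the channel genes reported singly between the libraries labelled KO and WT (x axis), grouped by class, with bars for the standard error of the fit (n = 3 per genotype) and filled points for an adjusted p under 0.05. Most points lie left of 0, the filled points on that side are nerve channel genes, and Kcnk15 stands alone at 7.19.

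Kcnk15 encodes TASK-5, a two-pore subunit that is not known to carry a current on its own when expressed in cell lines. The gene lies on chromosome 2 (GRCm38, 163853651 to 163859746, plus strand). It had 2, 3 and 0 counts in WT1, WT2 and WT3, and 191, 404 and 198 counts in KO1, KO2 and KO3. In CPM these are 0.0726, 0.128 and 0 in the WT and 9.77, 13.3 and 9.05 in the KO libraries, so the gene went from near absence to 10.7 ± 2.26 CPM (SD, n = 3). Set against 3 counts in each WT library, its KO mean was 86.5-fold higher (log2 fold change of the fit 7.19, standard error 0.47, adjusted p = 5.27e-05). That fold is not a lower bound, since 3 counts is the limit for a count of 0 and WT2 itself held 3. Kcnk15 passed the filter through the KO libraries alone and had to differ to be kept, so its presence among the 51 genes supports nothing further. With any KO library left out it no longer meets the filter, and on the unchanged gene set it was called in all 6 fits that left out a library.

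Per kilobase of annotated exon, Kcnk15 ranked 51st of the 51 genes in the WT and 5th in the libraries labelled KO, at 5.34 ± 1.13 CPM per kilobase. It supplied 2.17% to 3.90% of the summed channel CPM in the KO libraries. The gene that faces it, Rims4, an active zone protein of synapses, lies on the minus strand with its 3′ end 4 bases from that of Kcnk15 (163859751 to 163918683). Rims4 had 6, 5 and 18 counts in the WT and 43, 76 and 46 in the KO libraries (log2 fold change 2.49, adjusted p = 0.0199). Its level of 2.27 ± 0.206 CPM in the KO libraries was below that of Kcnk15. Like Kcnk15, Rims4 reached 1 CPM in no WT library and passed the filter through the KO libraries alone, so its call has the same limit. With single libraries removed, Rims4 met the filter 3 times and was called 1 time, with adjusted p up to 0.0985. On the unchanged gene set its calls numbered 3 of 6. Whether reads of one gene run into the other was not tested, and the strand setting of the counting is not stated. Ywhab, a 14-3-3 protein gene further along the chromosome, had 220 ± 14.7 CPM in the WT and 249 ± 14.6 in the KO libraries (adjusted p = 0.368).

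Promoter windows are shown for the called gene that was nearly absent in the WT and for the called gene with the lowest level in the libraries labelled KO, to set the sequences of a gene that rose beside one that fell. Each window runs from 250 bases before to 50 bases after a RefSeq start on GRCm38.p6, 5′ to 3′ on the gene's strand. The first is chr2:163853500-163853799 (plus strand) and the second chr12:17176839-17177138 (minus strand).
Kcnk15: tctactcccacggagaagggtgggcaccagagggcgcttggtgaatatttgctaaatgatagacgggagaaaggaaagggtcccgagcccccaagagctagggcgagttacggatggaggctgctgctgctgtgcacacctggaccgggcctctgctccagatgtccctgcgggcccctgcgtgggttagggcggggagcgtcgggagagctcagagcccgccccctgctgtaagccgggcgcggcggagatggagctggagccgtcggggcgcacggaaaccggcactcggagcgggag
Kcnf1: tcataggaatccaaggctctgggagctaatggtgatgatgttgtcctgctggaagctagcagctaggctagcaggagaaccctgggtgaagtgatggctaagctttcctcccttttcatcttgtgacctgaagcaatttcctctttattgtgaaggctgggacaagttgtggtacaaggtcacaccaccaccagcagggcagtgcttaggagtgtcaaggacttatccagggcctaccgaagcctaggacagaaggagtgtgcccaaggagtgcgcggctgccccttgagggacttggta
The Kcnk15 window has 66.3% G or C and 24 CpG dinucleotides, and the Kcnf1 window has 53.0% and 3, where the median over 32851 windows of 300 bases was 52.7% G or C. The windows of Kcnq5, which also fell, have 62.7% and 20, and 46.0% and 3. A single pair of windows cannot relate base content to direction. GTF2IRD1 is known to bind sequences with a GATT core. The letters GGATTA, searched on both strands (as TAATCC on the other), were in 7.06% of all windows, in 1 of 54 windows of 38 channel genes (that of Kcng4) and in 0 of the 4 windows of called channel genes, those of Kcnk15, Kcnf1 and Kcnq5. No match means only that these letters are not in this window. The shorter GATT was not counted, and the Kcnf1 window above holds it on the other strand (as aatc). The other called genes had no window.

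Kcnv1, the other gene that rose, encodes Kv8.1, a silent subunit that joins and alters Kv2 channels. It had 1.49, 1.36 and 1.71 CPM in the WT and 3.02, 3.42 and 3.43 in the KO libraries, so its genotypes did not overlap. The rise was 2.17-fold (log2 fold change 1.12, standard error 0.21, adjusted p = 0.0223), from 32 to 41 counts in the WT to 59 to 104 in the KO libraries. When libraries were left out singly, it passed without KO1 and without KO3 and was lost without WT1, WT2, WT3 or KO2.

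Each of the 5 channel genes that fell by the quasi-likelihood test is a voltage-gated gene of the nerve class, and 3 of these 5 are described here. The nerve class holds 28 of the 51 genes. The exact test and DESeq2 also called Kcna7, Kcnj11, Kcna5 and Kcnma1 of the muscle classes lower, as given below. Kcnq5 encodes Kv7.5, which carries a slow current that holds cells near rest in neurons and also in muscle. It had 13.9, 11.6 and 10.7 CPM in the WT and 5.22, 5.82 and 7.27 in the KO libraries, without overlap (log2 fold change -0.99, standard error 0.19, adjusted p = 0.0262). Exons of Kcnq5 overlap Gm26580 on the opposite strand. Kcnq1, of the same family, had KO values below the WT values as well but did not pass (log2 fold change -0.55, adjusted p = 0.157). Kcnq5 passed without KO3 alone when libraries were left out singly.

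Kcnd1 encodes Kv4.1, a rapidly inactivating A-type channel. Its CPM was 3.63, 3.19 and 3.42 in the WT and 1.28, 1.94 and 1.65 in the KO libraries (log2 fold change -1.06, standard error 0.23, adjusted p = 0.0361). Kcnf1 encodes Kv5.1, a silent partner of Kv2 channels, and was near the filter, with 40, 24 and 28 counts in the WT and 7, 18 and 11 in the KO libraries. It fell by 1.33 on the log2 scale (standard error 0.32, adjusted p = 0.0482). Kcnf1 reached 1 CPM in no KO library and passed the filter through the WT alone, so its call has the same limit as that of Kcnk15. It was lost with DESeq2's size factors (adjusted p = 0.0532), with library size alone (0.0524) and without the filter on low counts (0.0662). Kcnd1 passed without KO3 alone, and Kcnf1, which was tested only in the fits that left out a KO library, did likewise.

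**Figure D2:**
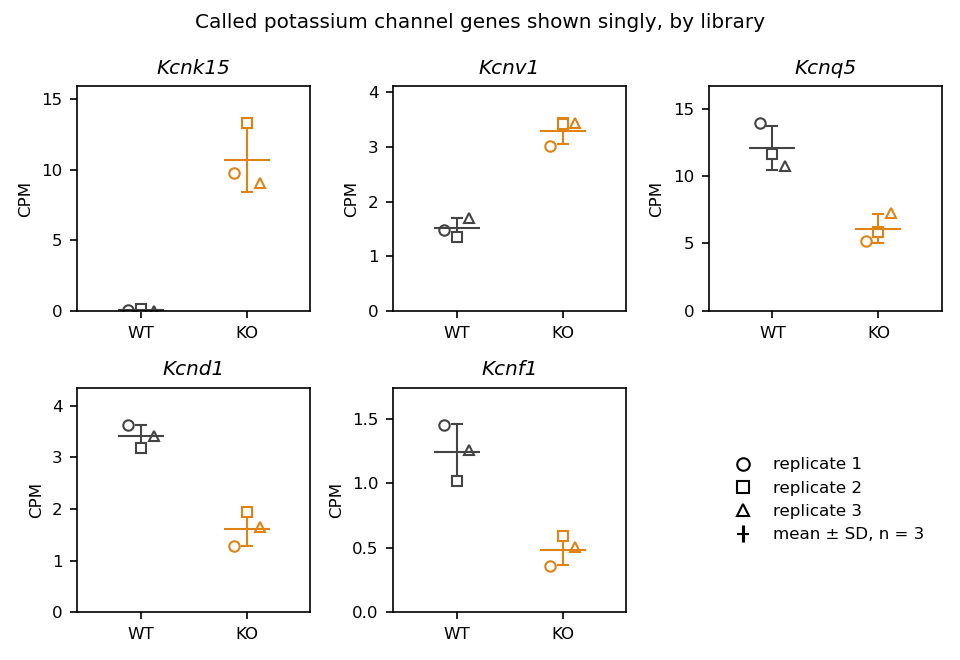
CPM of 5 called channel genes in each library (y axis, linear from 0), with symbols for the replicate number and lines for mean ± SD (n = 3 per genotype). The genotypes do not overlap in any of these genes, which were chosen by this difference, and the WT points of Kcnk15 lie at or near 0.

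The nerve class had 28 genes, of which 1 rose and 5 fell, 24 had a negative log2 fold change and 10 had every KO value under the WT range, with a median of -0.43. It holds a gene with a larger difference than those called. Kcnc1, which encodes Kv3.1, had 65.5, 41.4 and 57.1 CPM in the WT and 8.65, 13.3 and 37.5 in the KO libraries. KO1 and KO2 were far below the WT while KO3 lay close to WT2, and the log2 fold change of -1.46 did not pass by the quasi-likelihood test (standard error 0.49, adjusted p = 0.0999), while the exact test (adjusted p = 0.0055) and DESeq2 (0.018) called it lower. By the quasi-likelihood test it was -2.31 without KO3 (adjusted p = 0.000528) and -1.05 without KO1 (adjusted p = 0.229). Kcnc2, the gene of Kv3.2, had a log2 fold change of -0.97 (adjusted p = 0.123).

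The genes for subunits of axonal Kv1 channels, which lie beside the nodes of myelinated fibres, did not pass with all libraries. Which cells of the lip hold their RNA was not tested. Kcna1 (Kv1.1) had 18.4, 15.7 and 16.9 CPM in the WT and 13.4, 9.11 and 14.7 in the KO libraries (log2 fold change -0.46, adjusted p = 0.173). Kcna2 (Kv1.2) had a log2 fold change of -0.04 (adjusted p = 0.911), and Kcna6 (Kv1.6), whose exons overlap Gm26673 on the opposite strand, one of -0.42 (adjusted p = 0.338). The beta subunit genes Kcnab1, Kcnab2 and Kcnab3 lay between -0.47 and -0.35, and the Kv4 partners Kcnip2, Kcnip3 and Kcnip4 between -0.39 and -0.13. None of these passed with all libraries. Without KO3, Kcna1 (-0.60, adjusted p = 0.0448) and Kcnab2 (-0.70, adjusted p = 0.0184) passed, and Kcna6 (adjusted p = 0.0605) did not. With another library left out neither Kcna1 nor Kcnab2 passed (adjusted p up to 0.555 and 0.841).

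Kcnh1, the gene of the ether-a-go-go channel Kv10.1, was among the 4 genes of the nerve class with a positive log2 fold change. It had 34.2, 21.3 and 22.4 CPM in the WT and 32.4, 30.8 and 35.7 in the KO libraries, with WT1 inside the KO range (log2 fold change 0.35, adjusted p = 0.277). The background leak genes Kcnk2 (TREK-1, 0.09, adjusted p = 0.766) and Kcnk4 (TRAAK, -0.02, adjusted p = 0.962, overlapping Catsperz on the same strand) lay near 0 on the log2 scale. Without KO3, 10 of 27 tested nerve genes were lower and 1 was higher, where 16.2% and 16.9% of all tested genes were.

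Marker genes of nerve were summed in the same libraries. The 12 Schwann cell markers summed to 688 to 720 CPM in the WT and 400 to 618 CPM in the KO libraries, 11 of them with a negative log2 fold change 7 with every KO value under the WT range and none called with all libraries, against 7 called lower without KO3 (median -0.48 with all libraries). Of 16 neuron markers only 4 reached the filter, at a sum of 41.4 to 56.1 CPM in the WT and 38.9 to 45.0 CPM in the KO libraries, with overlap. All 4 had a negative log2 fold change (median -0.43), and 2 had every KO value under the WT range. With all libraries none of the 4 was called and 2 were lower at an unadjusted p under 0.05, while 2 were called lower without KO3. Rbfox3 held at most 3 counts in every library, and Snap25, Elavl3 and Prph were below the filter. The part of nerve content in the channel values was not tested.

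The skeletal muscle class had 5 genes, of which 0 passed by the quasi-likelihood test and 2 were lower at an unadjusted p under 0.05. DESeq2 and the exact test each called Kcna7 and Kcnj11, and without KO3 the quasi-likelihood test called 3 of the 5, with Kcnc4 as the third. All 5 log2 fold changes were negative, with a median of -0.78. Kcna7 encodes Kv1.7, a voltage-gated channel of striated muscle, and had the highest level per kilobase of all channel genes in the WT. It had 45.5, 29.5 and 33.3 CPM in the WT and 10.3, 15.3 and 22.1 in the KO libraries. These did not overlap, and the log2 fold change of -1.18 narrowly missed the threshold (standard error 0.29, adjusted p = 0.0508), passing without KO3 (-1.49, adjusted p = 0.00251). Without KO1 it was -0.89 (adjusted p = 0.143).

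Kcnj11 encodes Kir6.2, the pore of the ATP-sensitive channel that opens when muscle runs short of energy. Its CPM was 12, 7.1 and 10.3 in the WT and 2.56, 3.95 and 7.54 in the KO libraries, where KO3 reached above WT2 (log2 fold change -1.07, adjusted p = 0.115, and -1.57 with 0.00392 without KO3). With another library left out Kcnj11 did not pass (adjusted p up to 0.348). Kcnc4 (Kv3.4) had 34.9, 27.6 and 37.1 CPM in the WT and 9.52, 17.7 and 30.8 in the KO libraries (log2 fold change -0.78, adjusted p = 0.196, -1.28 with 0.00648 without KO3, and -0.39 with 0.43 without KO1). Both showed KO3 within the WT range and KO1 lowest of all 6 libraries.

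The inward rectifiers that hold the resting potential of muscle gave other values. Kcnj2 (Kir2.1) had 36.0, 37.2 and 33.1 CPM in the WT and 36.1, 32.3 and 33.2 in the KO libraries, with a log2 fold change of -0.07 (standard error 0.13, adjusted p = 0.758) that turned to 0.03 without WT2 and 0.02 without KO2. Kcnj12 (Kir2.2) had 17.7, 11.9 and 10.3 CPM in the WT and 15.6, 12.5 and 9.97 in the KO libraries (log2 fold change -0.07, adjusted p = 0.873). In both genes the genotypes overlapped.

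Skeletal muscle markers were lower beside them. The 16 tested of 18 listed summed to 22847, 17007 and 21478 CPM in the WT and 8143, 8628 and 13634 in KO1, KO2 and KO3. All 16 had a negative log2 fold change (median -1.03), 2 were called (Tnnt3 and Tnni2, fast troponin genes) against 14 without KO3, and Myh7 and Tnnc2 were below the filter. For each 1000 CPM of these markers, Kcna7 had 1.76 ± 0.222 CPM in the WT and 1.55 ± 0.262 in the KO libraries, Kcnj11 had 0.474 ± 0.0537 and 0.442 ± 0.120, and Kcnc4 had 1.63 ± 0.101 and 1.83 ± 0.580. Kcnc1 had 2.65 ± 0.216 and 1.78 ± 0.870, and Kcnj12 had 0.651 ± 0.155 and 1.36 ± 0.594, with KO3 (0.731) inside the WT range and KO1 and KO2 above it. In these 5 genes the genotypes overlapped on that scale. Kcnj2 had 1.57, 2.19 and 1.54 CPM per 1000 CPM of markers in the WT and 4.44, 3.74 and 2.43 in the KO libraries, so all KO values lay above all WT values. The ratio shows that Kcnj2 and the markers did not change alike within a library, and the source of Kcnj2 RNA in the lip was not tested.

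**Figure D3:**
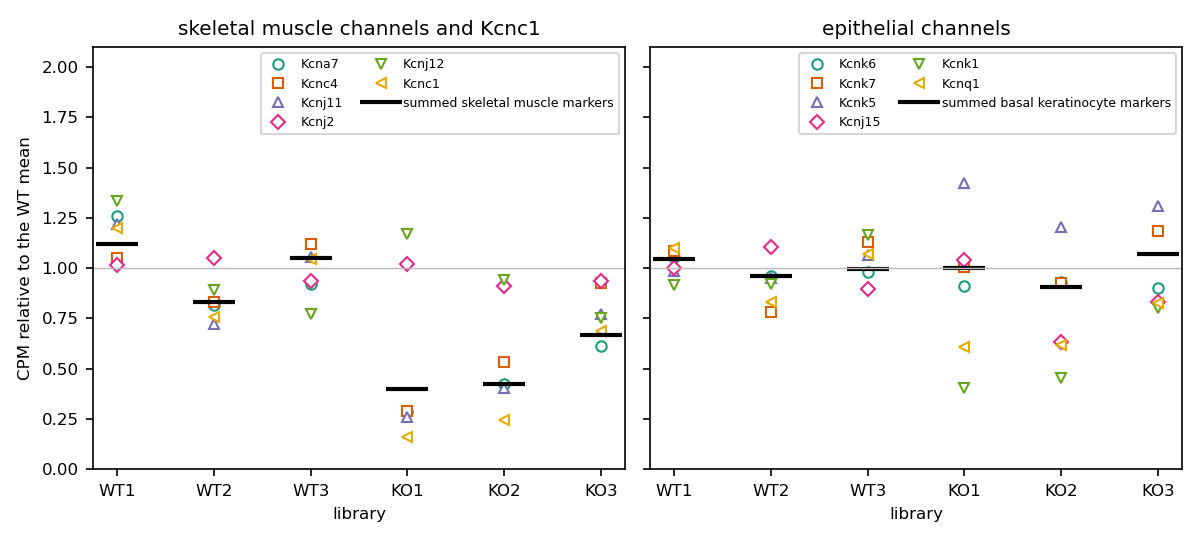
CPM of channel genes divided by their WT mean (y axis, linear) in each of the 6 libraries, for the skeletal muscle genes with Kcnc1 (left) and 6 epithelial genes (right), with black bars for the summed marker genes of skeletal muscle and of basal keratinocytes scaled the same way. In KO1 and KO2, Kcna7, Kcnc4, Kcnj11 and Kcnc1 lie near or below the muscle marker bar while Kcnj2 and Kcnj12 lie near 1, and the epithelial genes Kcnk6 and Kcnk7 stay near the keratinocyte bar.

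The class of smooth muscle and heart had 4 genes, all with a negative log2 fold change (median -0.88), of which 0 passed by the quasi-likelihood test, 2 were lower at an unadjusted p under 0.05, and 2 (Kcna5 and Kcnma1) were called by DESeq2 and by the exact test. Without KO3 the quasi-likelihood test called 3 of the 4. Kcna5 encodes Kv1.5, a channel of arterial smooth muscle and atrium. It had 3.81, 3.36 and 1.93 CPM in the WT and 0.716, 0.921 and 1.55 in the KO libraries, without overlap (log2 fold change -1.51, standard error 0.37, adjusted p = 0.0505). When libraries were left out singly, Kcna5 passed without KO3 alone (adjusted p = 0.00501), and its adjusted p reached 0.225 without KO2. Kcnma1 encodes the large-conductance calcium-activated channel that relaxes smooth muscle. It had 10.6, 6.93 and 10.6 CPM in the WT and 2.4, 4.7 and 5.76 in the KO libraries (log2 fold change -1.12, adjusted p = 0.0774, and 0.0102 without KO3), and overlaps 4930519K11Rik on the opposite strand. With another library left out Kcnma1 did not pass (adjusted p up to 0.240).

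Kcnj8, the gene of Kir6.1, the vascular ATP-sensitive pore, had 7.19, 8.71 and 9.53 CPM in the WT and 3.63, 4.41 and 8.23 in the KO libraries. KO3 lay within the WT range (log2 fold change -0.64, adjusted p = 0.199), and without KO3 the value was -1.06 (adjusted p = 0.0058). With another library left out Kcnj8 did not pass (adjusted p up to 0.520). Its regulatory subunit gene Abcc9 (SUR2) had 48.0 ± 1.56 CPM in the WT and 29 ± 11.4 in the KO libraries (log2 fold change -0.73, adjusted p = 0.105), with exons that overlap 5330439B14Rik on the opposite strand. The 9 smooth muscle and pericyte markers summed to 639 to 713 CPM in the WT and 474 to 618 CPM in the KO libraries (1 called lower, Tagln, median -0.42). The 8 endothelial markers gave 229 to 276 CPM and 154 to 264 CPM, with none called. Without KO3, 4 of the 9 and 5 of the 8 were lower. Their part in the channel values was not tested.

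The epithelial class had 8 genes, of which 0 passed by the quasi-likelihood test, 1 was higher and 2 were lower at an unadjusted p under 0.05, and 5 had a negative log2 fold change (median -0.16). DESeq2 and the exact test called 0 of its genes. Every KO value was under the WT range in 3 of the 8 (Kcnk6, Kcnk1 and Kcnq1), and without KO3 the quasi-likelihood test called 2 lower, Kcnk1 (-1.21, adjusted p = 0.00525) and Kcnq1 (-0.70, adjusted p = 0.0465). With another library left out neither Kcnk1 nor Kcnq1 passed (adjusted p up to 0.352 and 0.453). Kcnk6 (TWIK-2) and Kcnk7, two-pore genes of which Kcnk7 is not known to carry a current, were the channel genes with the highest levels per kilobase in the libraries labelled KO. Kcnk6 had 57.6, 52.4 and 53.5 CPM in the WT and 49.6, 50.6 and 49.1 in the KO libraries (log2 fold change -0.13, standard error 0.12, adjusted p = 0.475). Kcnk7 had 17.7, 12.8 and 18.4 CPM in the WT and 16.4, 15.1 and 19.3 in the KO libraries (log2 fold change 0.06, standard error 0.19, adjusted p = 0.865). The sign of Kcnk7 turned without WT2 and without KO3. For both genes the standard errors were smaller than those of Kcna7, Kcnc4 and Kcnj11.

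Kcnk5 encodes TASK-2, a channel of transporting epithelia that opens at alkaline pH. It had 8.57, 8.25 and 9.26 CPM in the WT and 12.4, 10.5 and 11.4 in the KO libraries, and with Kcnk15 and Kcnv1 it is 1 of the 3 genes with all KO values above all WT values (log2 fold change 0.39, adjusted p = 0.143). Kcnk1 (TWIK-1) had 4.06, 4.08 and 5.17 CPM in the WT and 1.79, 2.01 and 3.57 in the KO libraries (log2 fold change -0.85, adjusted p = 0.104, overlapping Gm45875 on the opposite strand). Kcnq1, the pore of the slow epithelial and cardiac current, lay below the WT in all KO libraries as given above and overlaps Kcnq1ot1 on the opposite strand, while its beta subunit gene Kcne1 had a log2 fold change of 0.07 (adjusted p = 0.813).

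Basal keratinocyte markers summed to 10798 to 11788 CPM in the WT and 10204 to 12054 CPM in the KO libraries, with none of 7 called. Suprabasal keratinocyte markers summed to 20556 to 25057 CPM in the WT and 31553 to 48194 CPM in the KO libraries (1 of 9 called higher, Ivl). The 12 hair follicle markers gave 6335 to 8027 CPM and 4026 to 5451 CPM (1 called lower, Hoxc13). Of the salivary and mucous gland markers, 6 of 14 were tested and summed to 23.2 to 25.1 CPM in the WT and 72.6 to 139 CPM in the KO libraries. Aqp5, Lpo and Krt7 were called higher, while the other 3 had a negative log2 fold change, 1 of them at an unadjusted p under 0.05. The sum therefore does not describe each gene, and Aqp5 is also in the list of epithelial ion transport genes. The gland genes Bpifa2 and Smr3a held at most 3 counts in every library. The part of gland and suprabasal cells in the level of Kcnk15 was not tested. Markers of T cells (6 tested), macrophages (7), melanocytes (4) and Merkel cells (3) had none called, and 1 of 6 adipocyte markers, Fabp4, was called lower. Without KO3, 5 suprabasal markers and 1 Merkel cell marker were higher, and 7 hair follicle, 3 macrophage and 3 adipocyte markers were lower, while 0 of the basal keratinocyte, T cell and melanocyte markers were called.

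Among the 6 genes placed as broad or unsure, Kcnk15 rose and 0 fell, and without KO3 1 of the 4 then tested (Kcnk16) was lower. Kcng4, a silent Kv6.4 subunit, had 47, 21 and 39 counts in the WT and 7, 19 and 24 in the KO libraries (log2 fold change -1.06, adjusted p = 0.152). Kcne4, an inhibitory beta subunit of Kv channels, had a log2 fold change of -0.52 (adjusted p = 0.161), and Kcns3, a silent subunit of Kv2 channels, one of -0.50 (adjusted p = 0.191). By family, the 5 calcium-activated pore genes had negative log2 fold changes (median -0.72), while the 9 two-pore genes had a median of -0.02 that turned to 0.0058 with DESeq2's size factors. Medians were -0.78 for skeletal muscle, -0.88 for smooth muscle and heart, -0.43 for nerve and -0.16 for epithelium, and the difference between classes was not tested.

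Levels were compared per kilobase of annotated exon, which understates genes with long exons that the lip does not use. In the WT, the order was Kcna7 (16.5 ± 3.83 CPM per kilobase), Kcnk6 (13.1 ± 0.659), Kcnk7 (10.4 ± 1.98), Kcnc4 (9.06 ± 1.36), Kcnj2 (6.5 ± 0.391) and Kcnc1 (5.78 ± 1.29). Kcna7 and Kcnk6 differed by less than the SD of Kcna7, Kcnk7 and Kcnc4 by less than the SD of either, and Kcnj2 and Kcnc1 by less than the SD of Kcnc1. In the libraries labelled KO the order was Kcnk6 (12 ± 0.183), Kcnk7 (10.8 ± 1.36), Kcna7 (7.29 ± 2.73), Kcnj2 (6.22 ± 0.370), Kcnk15 (5.34 ± 1.13) and Kcnc4 (5.28 ± 2.93). There Kcnj2, Kcnk15 and Kcnc4 each differed from the gene before it by less than the larger of the SDs of the pair, while Kcnk7 and Kcna7 differed by more.

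**Figure D4:**
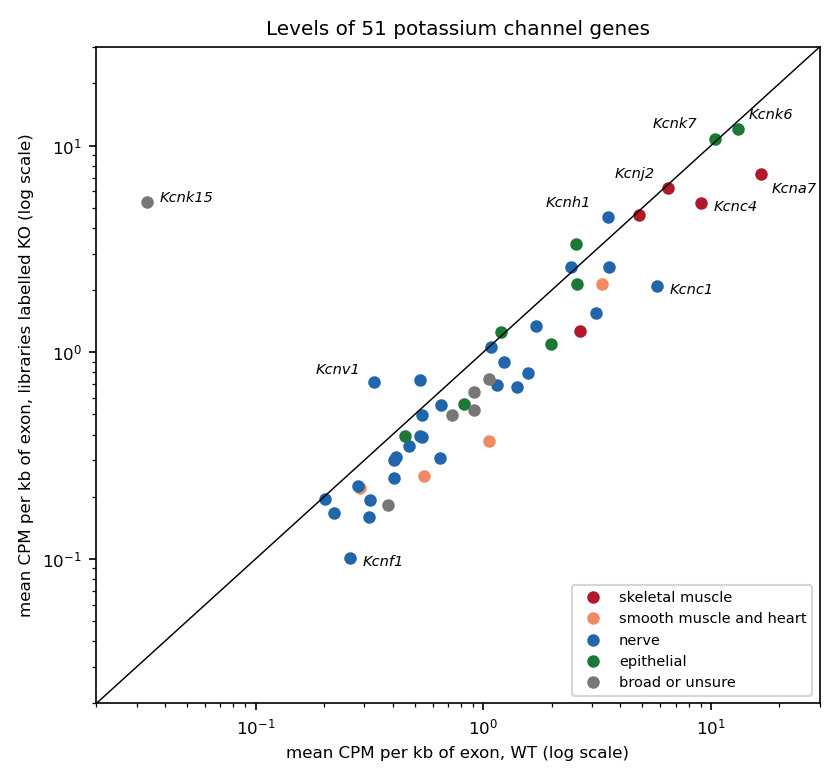
Mean CPM per kilobase of exon of the 51 channel genes in the WT (x axis) and in the libraries labelled KO (y axis), both on log scales, coloured by class, with the line of equal levels. Most points lie under the line, the epithelial genes Kcnk6 and Kcnk7 lie close to it, and Kcnk15 lies far above it.

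Genes that work with these channels were described by lists. Of 15 channel partners 7 were tested, and Cntn2, an adhesion protein that gathers Kv1 channels beside the node, fell from 4.53 ± 2.23 to 1.4 ± 0.315 CPM (log2 fold change -1.71, adjusted p = 0.0451). All 7 had negative log2 fold changes (median -0.73), and 4 were lower without KO3. Among 15 tested genes of muscle excitability, 1 fell, 15 had a negative log2 fold change and 14 had every KO value under the WT range (median -0.99). All 15 were lower at an unadjusted p under 0.05, and 13 were called without KO3. The one that fell was Cacng1, the gamma subunit of the muscle calcium channel, with 27.7, 21 and 26.8 CPM in the WT and 5.63, 5.46 and 9.69 in the KO libraries (log2 fold change -1.86, adjusted p = 0.00454). Scn4a, the sodium channel of skeletal muscle, had a log2 fold change of -1.06 (adjusted p = 0.109).

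The sodium pump and its relatives restore the potassium that channels release. Of 23 tested genes, 1 rose and 3 fell, against 4 higher and 8 lower without KO3, where 16.9% and 16.2% of all genes were. The pump beta subunit gene Atp1b3 rose from 375 ± 10.6 to 626 ± 46.5 CPM (log2 fold change 0.74, adjusted p = 0.017), whereas Atp1b1 fell from 225 ± 31.6 to 125 ± 15.5 CPM (-0.85, adjusted p = 0.0192), overlapping Nme7 on the opposite strand. Wnk4, a kinase that regulates ion transport (-1.18, adjusted p = 0.0364, overlapping Gm11615 on the opposite strand), and Fxyd4, a pump regulator (-0.89, adjusted p = 0.0469), fell as well. Of 11 tested sodium channel and node genes of nerve, 0 were called by the quasi-likelihood test, 1 was higher and 2 were lower at an unadjusted p under 0.05 (median -0.22), and without KO3 the same numbers of genes passed at an adjusted p under 0.05. Of 17 tested genes of epithelial ion transport, 1 rose, the water channel gene Aqp5, from 10.6 ± 1.95 to 68.7 ± 16.6 CPM (log2 fold change 2.69, adjusted p = 0.000349), and the median was 0.28. Without KO3, 4 of the 17 were higher and 1 was lower, where 16.9% and 16.2% of all genes were. When libraries were left out singly, Cacng1 and Aqp5 passed in all 6, Cntn2, Atp1b3 and Atp1b1 in 2, and Wnk4 and Fxyd4 in 1.

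By the third-highest CPM over the 6 libraries, without TMM factors, the genes just inside the filter were Kcng4 at 1.08, Kcnf1 at 1.09 and Kcnh2 at 1.27, and those just outside were Kcnrg at 0.949, Kcnd3 at 0.916 and Kcne3 at 0.899. Of the 51 genes, 43 had 1 CPM or more in all 6 libraries, 5 of the 7 called genes among them. The exons of 19 of the 51 genes overlap those of another gene.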

How the data were processed

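The deposited values are whole-number counts per gene: the authors aligned read pairs with TopHat2 2.0.8, which calls Bowtie2 2.1.0, on GRCm38, and HTSeq counted the uniquely placed reads, with no normalization. The strand setting and counting mode are not stated. A gene was kept if 3 or more libraries had 1 CPM or more of it, and CPM values were computed here with TMM factors. Genotypes were compared with edgeR 4.0.16 (R 4.3.3, limma 3.58.1) by estimateDisp, glmQLFit with legacy=FALSE and glmQLFTest, adjusted by Benjamini and Hochberg over all 15009 tested genes, at an adjusted p under 0.05. The main quasi-likelihood fit was tested on simulated data first, and the alternatives were not. Alternatives were edgeR's exact test, DESeq2 1.42.0, the older quasi-likelihood fit, other size factors, other filters, a replicate block, an adjusted p under 0.1 and each library left out. Replicates are separate mice.

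The genes, classes, partner and marker lists were chosen with earlier results of these data known, and support nothing by themselves. Genes named singly were those called, those with a log2 fold change beyond 1 in size, the 3 with the highest level per kilobase in each class, called partners and the genes nearest the filter; other genes, such as Kcnj12 or Kcnk1, were added after their values were seen. Of the called genes, 2 are counted but not reported here. For GRCm38, a GENCODE annotation that held all 51 genes gave positions, exon lengths and overlaps, and RefSeq gave the promoter windows (GRCm38.p6).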

Additional observations from a re-analysis of the deposited data

How the results depend on the processing

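Of the channel genes lower in the libraries labelled KO, 5 passed with edgeR's quasi-likelihood test, against 10 with the exact test, 10 with DESeq2 and 11 at an adjusted p under 0.1. The share of all genes called was not counted at 0.1, with the replicate block or with a library other than KO3 left out. Requiring at least 10 counts in every library left 1 gene higher, since Kcnk15 was then not tested. With each library left out the count lay between 0 and 19 for lower genes (19 without KO3, where 23 were lower at an unadjusted p under 0.05) and between 0 and 1 for higher genes. With the gene set held fixed, a choice made after seeing the data, the ranges were 0 to 20 and 1 to 2. Over the fits that each left out a library, the median log2 fold change lay between -1.28 and -0.39 for skeletal muscle genes (-1.28 to -0.40 with the fixed set), between -0.61 and -0.28 for nerve genes (-0.63 to -0.30) and between -0.19 and -0.030 for epithelial genes (-0.19 to -0.042, and -0.049 without WT3 on that set), with the lowest of these values without KO3 in each class. With upper quartile scaling the epithelial median was -0.22. The cause of these shifts was not tested. Kcnj2 lay between -0.12 without WT3 and 0.030 without WT2, and was positive without KO2 too (0.025, and 0.0010 on the fixed set). Kcnk7 lay between -0.043 without KO3 and 0.19 without KO2, and was negative without WT2 too (-0.035); on the fixed set it was -0.093 without WT2 and -0.048 without KO3. For the 23 channel genes named by rule, 471 alternative values kept their direction and side of the threshold in 378, lost the call in 56, gained one in 30 and turned in 7. With the replicate block 1 gene was higher and 2 were lower, but the samples share only a number: deviations of same-numbered libraries correlated at -0.19, 0.29 and 0.31 across genes, and KO1 correlated best with WT2. Counts of a few reads in genes such as Kcnf1 and Kcng4 limit their precision.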

Other observations

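The 41 Kcn symbols below the filter were not tested, and a few of them are given here as counts in WT1, WT2, WT3, KO1, KO2 and KO3. Kcnk3, the acid-sensitive leak channel TASK-1 and a relative of Kcnk15, had 18, 20 and 18 counts in the WT and 8, 6 and 10 in the libraries labelled KO, with all KO values below all WT values in CPM. Kcna3, the Kv1.3 channel of T cells, had 7, 11 and 9 counts in the WT and 4, 21 and 10 in the KO libraries, which overlap. Kcnj13, an inward rectifier of transporting epithelia, had 9, 7 and 10 counts against 5, 2 and 3. Kcnj10, the glial inward rectifier Kir4.1, had 5, 3 and 7 counts against 7, 7 and 9. Outside the Kcn genes, Scn1a, a sodium channel of neurons, had 0.0421 ± 0.0453 CPM in the WT and 1.47 ± 0.743 in the KO libraries (SD, n = 3) and did not reach the filter. These genes were chosen after their values were seen.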
